A study of Mus musculus with 34 samples.

Results

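The aminoacyl-tRNA synthetase genes code for the enzymes that load amino acids onto tRNAs, and their mRNA was followed here in mouse neuroblastoma cells treated with 27 small molecules. Members were found by gene symbol in the expression table, and all 36 listed symbols were present among its 52661 genes. Of these, 20 code for the cytosolic enzymes (Aars to Yars) and 16, with names ending in 2, for the mitochondrial ones. The cells were N2A (Neuro-2A), an established mouse line derived from a neuroblastoma. Each condition was 24 h of treatment at a final 0.4% DMSO, and polyA RNA was sequenced in 34 libraries. DMSO alone, the control, had 3 libraries (A, B and C) by the labels, whereas the study's reporting summary counts fewer, and the labels were followed. The histone deacetylase (HDAC) inhibitors Vorinostat (also called SAHA), CI-994 at 5 µM, BRD4884 at 10 µM and BRD6688 at 10 µM had 2 libraries each (A and B). The other 23 compounds had 1 library each. The kinase inhibitors were A-443654 (AKT1, 0.25 µM), NVP-AEW-541 (IGF1R, 1 µM), Trametinib (MEK1 and MEK2, 1 µM), Crenolanib (PDGFR, 2 µM), SCH-772984 (ERK1 and ERK2, 2 µM), GNF-5837 (TRKA and TRKB, 0.5 µM) and MK-1775 (WEE1, 2 µM), and 5-azacytidine (5 µM) inhibits DNA methyltransferases. The drug-like compounds, with no known target, were BTB12021 (20 µM), BTB13120, RDR00572 (2.5 µM), S02045 (5 µM), BTBS00065 (2.5 µM), SEW06315 (2.5 µM), RH01954 (2.5 µM), AW00693 (5 µM), SPB00858 (20 µM), JFD00822 (5 µM), and T5635931, T5758020, T5963258, T5985871 and ChemBridge_7678804 (each at 6.7 µM). The doses of Vorinostat and BTB13120 are not given here because the sources used did not settle them. The study had picked these compounds for raising or lowering the inclusion of neuronal microexons.

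Each aminoacyl-tRNA synthetase joins 1 amino acid to its matching tRNAs, so the set as a whole supplies every charged tRNA that ribosomes use. Cytosolic and mitochondrial translation rely on largely separate enzymes, all coded in the nucleus. Gars and Kars serve both compartments from a single gene, and Eprs carries glutamyl- and prolyl-tRNA synthetase in 1 protein. Several cytosolic enzymes are held in the multisynthetase complex by the scaffold proteins Aimp1, Aimp2 and Eef1e1. When amino acids run short or protein folding fails, the transcription factor ATF4 is known to induce many cytosolic synthetase genes together with genes of amino acid synthesis and uptake.

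The expression table gave 1 RPKM value per gene and condition (reads per kilobase of transcript and per 1000000 reads), with the libraries of a condition merged, so an RPKM value carries no spread between libraries and no test. A level per library came from the reads across exon junctions that the splicing table reports, summed per gene and expressed per 1000000 such reads of the library (the junction signal, in RPM). It was present for 34 of the 36 members, all but Mars2 and Pars2. Summed over exon events, these came to 33489679 to 75977986 per library, with a read used by several events counted for each of them. Over the 34 members the SD of the log2 junction signal among the 3 DMSO libraries ran from 0.0074 to 0.17, with a median of 0.049. Every compound was compared with the same DMSO control, so the comparisons are not independent of each other. The neuroblastoma markers Hand2 (248 RPKM), Stmn2 (175 RPKM), Tubb3 (396 RPKM) and Elavl4 (131 RPKM) were expressed in DMSO, whereas Nefl was at 0.01 RPKM. A list of 7 markers of other cell types (Ptprc, Cd68, Col1a1, Pecam1, Gfap, Mbp and Alb) summed to 3.65 RPKM in DMSO and to between 2.11 and 20.1 RPKM with the compounds, and Alb was listed at 0 in DMSO.

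In DMSO the cytosolic enzymes were far more abundant at the mRNA level than the mitochondrial ones. The cytosolic members ranged from 61.7 to 333 RPKM with a median of 149 RPKM, and all 20 exceeded the 5 RPKM used below as a floor. The highest were Sars (seryl-tRNA synthetase, 333 RPKM), Kars (lysyl, 322 RPKM) and Nars (asparaginyl, 312 RPKM), and the lowest were Wars (tryptophanyl, 61.7 RPKM), Farsa (the alpha subunit of the phenylalanyl enzyme, 75.4 RPKM) and Cars (cysteinyl, 80.3 RPKM). The beta subunit of that enzyme, Farsb, stood at 147 RPKM. The mitochondrial members ranged from 3.06 to 120 RPKM with a median of 15.7 RPKM, and 13 of 16 exceeded 5 RPKM. Lars2 (leucyl, 120 RPKM) stood above Rars2 (arginyl, 45.4 RPKM) and Tars2 (threonyl, 42.9 RPKM), and the lowest were Mars2 (methionyl, 3.06 RPKM), Wars2 (3.10 RPKM) and Pars2 (prolyl, 3.86 RPKM). By RPKM, only Lars2 among the mitochondrial members lay within the range of the cytosolic ones. Its RPKM is to be read with caution, because it disagreed with the junction signal more than that of any other member, as given below. With a single merged value per gene, the order of neighbours in these levels could not be tested.

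Because part of the family is known to answer to ATF4, the promoters were searched for the 8-base sequence TGATGCAA, which ATF4 is known to bind with a C/EBP partner, on both strands and from 250 bases before to 50 bases after the start of the gene. RefSeq promoters (build GRCm38.p6) were matched for 27 of the 36 members, and those of Cars, Hars, Hars2, Lars, Nars, Pars2, Rars, Vars and Wars were not searched. The sequence was present in 4 of 13 cytosolic promoters and in 0 of 14 mitochondrial ones, against 1.03% of all 27025 promoters searched. All 4 were among the 8 searched promoters of the list of known ATF4 targets. Of the matches, 3 are shown 5′ to 3′ on the strand of the gene, in windows of 30 bases with the matched letters in capitals. They are shown because members on that list were mostly above DMSO with SEW06315, although these 3 were not the highest of them.
Iars (chr13:49682126-49682155, plus strand): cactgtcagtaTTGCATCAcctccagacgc
Tars (chr15:11399655-11399684, minus strand): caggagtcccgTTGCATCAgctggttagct
Yars (chr4:129189895-129189924, plus strand): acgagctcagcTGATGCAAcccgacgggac
In Iars and Tars the match was on the opposite strand and reads TTGCATCA, and in Yars it was on the strand of the gene. The looser pattern TGATGNAA, which includes all matches to TGATGCAA, was found in 5 of the 27 members and in 4.51% of all promoters. It added Gars, shown because that member was among those highest with SEW06315, with TTTCATCA starting 30 bases before the gene start.
Gars (chr6:55037960-55037989, plus strand): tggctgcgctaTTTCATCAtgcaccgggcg
Eprs, also among those highest with SEW06315, had no match to either form, and Wars and Lars were not searched. A match of letters is a description of the promoter and not evidence that a factor binds there.

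Synthetase genes seldom differed from DMSO by more than 2-fold, and those that did were mostly lower. A pair of compound and member was counted past 2-fold on log2 of (RPKM + 0.5) in the compound over that in DMSO, with more than 5 RPKM in either condition. Of the 972 pairs, 37 lay below, against 3.86% of the pairs of gene and compound above 5 RPKM, and 2 lay above, against 2.67%. The 972 also include pairs under that floor, which could not be counted as past 2-fold, so the shares are not on quite the same basis. The share below was thus near that of all genes. With ratios centred on the median of all genes the counts were 10 below and 9 above. Of the 37, 23 were cytosolic and 14 mitochondrial, so that 12 of the 20 cytosolic and 6 of the 16 mitochondrial members lay below in at least 1 compound. Both pairs above 2-fold were Lars2. The mitochondrial tyrosyl enzyme Yars2 was below in 5 compounds, more than any other member, at 29.1 RPKM in DMSO and 6.90 RPKM with Vorinostat, 6.19 with CI-994, 12.9 with BRD6688, 13.7 with BRD4884 and 13.9 with GNF-5837. Vars, Iars and Lars were below in 3 compounds each. Apart from Lars2, the remaining 17 members, such as Aars, Dars, Eprs, Kars, Qars and Rars, stayed within 2-fold in every compound or under the floor, and Pars2 with CI-994 (3.86 to 1.60 RPKM) was a case of the latter.

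**Figure D1:**
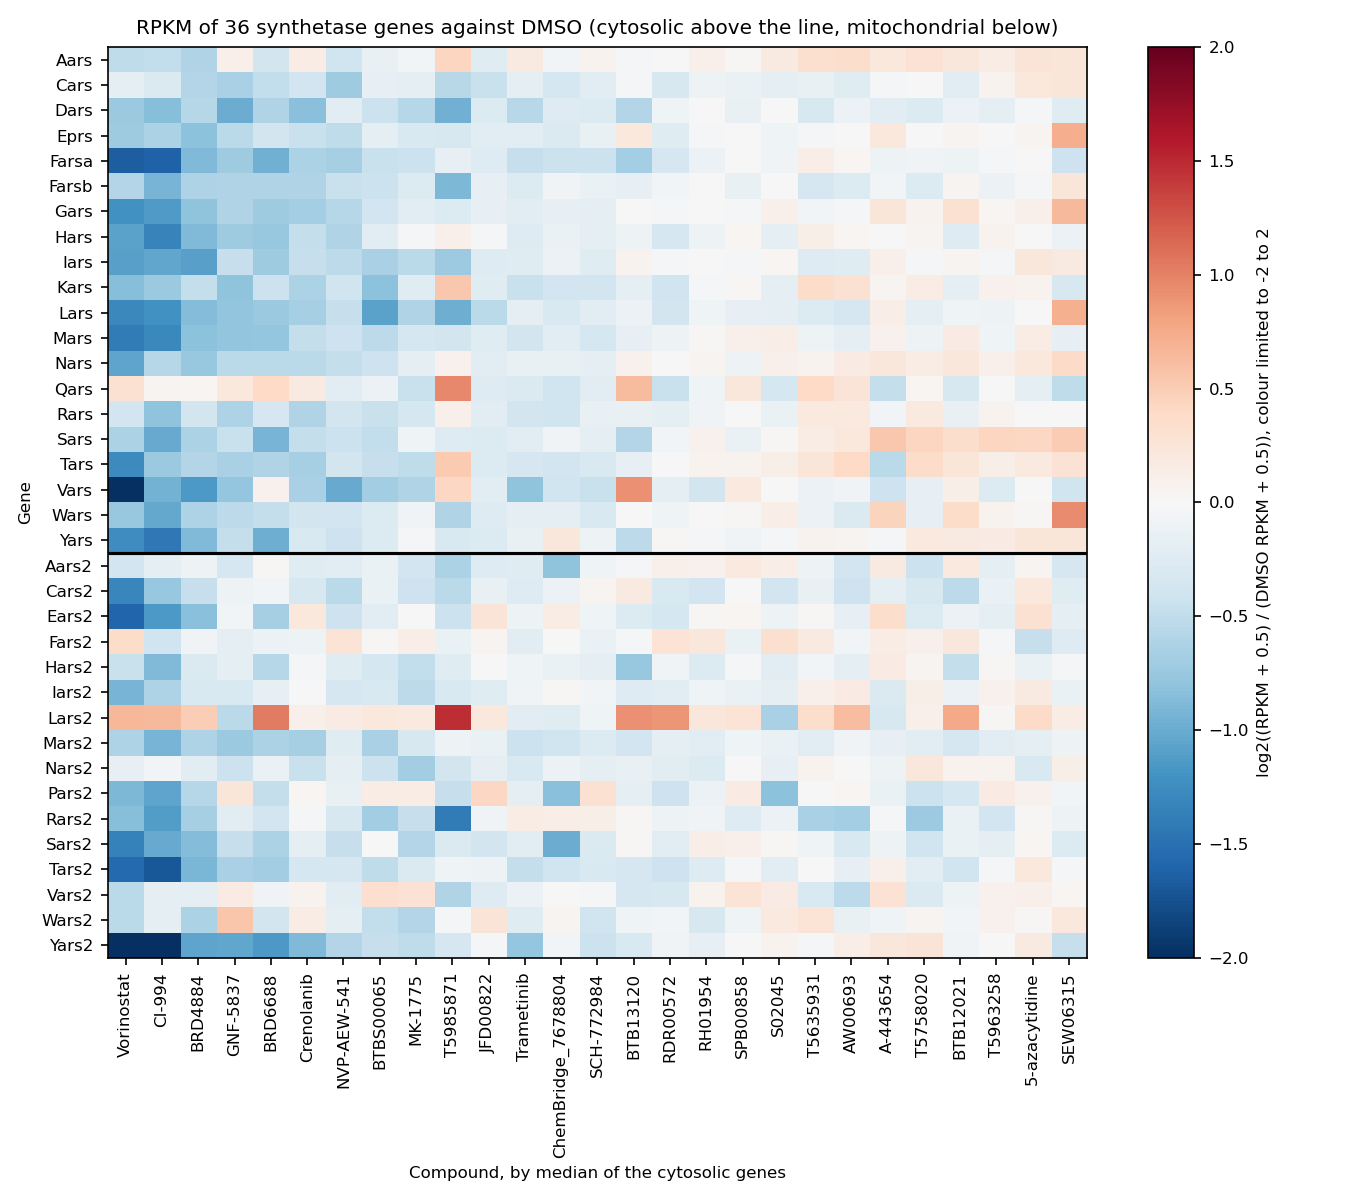
Log2 ratio of RPKM in each of the 27 compounds over DMSO for the 36 synthetase genes, with cytosolic members above the line, mitochondrial members below it, and compounds ordered by the median of the cytosolic members. The darkest blue columns are Vorinostat and CI-994 at the left, and Lars2 is the red row among the mitochondrial members, reaching 1.48 with T5985871.

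The 27 compounds differed in how the cytosolic enzymes moved as a group. The median log2 ratio of the 20 cytosolic members ran from -0.95 with Vorinostat to 0.24 with SEW06315, and in 12 compounds it lay within 0.2 of 0. It exceeded 0.3 in size in 8 compounds, all in the downward direction, namely the 4 HDAC inhibitors, GNF-5837 (-0.61), Crenolanib (-0.51), NVP-AEW-541 (-0.44) and BTBS00065 (-0.43). The median of all genes above 5 RPKM was itself below 0 in most compounds, at -0.36 with Vorinostat, -0.44 with CI-994, -0.27 with BRD4884, -0.19 with BRD6688 and GNF-5837, and between -0.15 and -0.14 with Crenolanib, NVP-AEW-541, BTBS00065 and SEW06315. Relative to it, the cytosolic median was -0.59 with Vorinostat, -0.50 with CI-994, -0.43 with BRD4884, -0.41 with BRD6688 and 0.38 with SEW06315.

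Cytosolic and mitochondrial enzymes did not move as opposites. The mitochondrial median was below 0 in 26 of the 27 compounds and the cytosolic median in 19, and the mitochondrial median was the higher of the pair in 13 compounds and the lower in 14. The difference between them, which no common scaling alters, exceeded 0.3 in size in 3 compounds. With Crenolanib the cytosolic median was -0.51 and the mitochondrial median -0.06, a difference of 0.45. There Dars (aspartyl) was lower, from 196 to 110 RPKM, and Gars (glycyl) from 302 to 188 RPKM, whereas the mitochondrial glutamyl gene Ears2 was at 9.18 and 10.8 RPKM, Qars at 99.2 and 112 RPKM and Aars at 229 and 255 RPKM. Yars2 did not follow the mitochondrial group with Crenolanib, at 29.1 and 15.5 RPKM. With GNF-5837 the difference was 0.35, with Dars from 196 to 98.8 RPKM and Kars from 322 to 183 RPKM. With SEW06315 it was -0.34, the cytosolic median being the higher one.

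**Figure D2:**
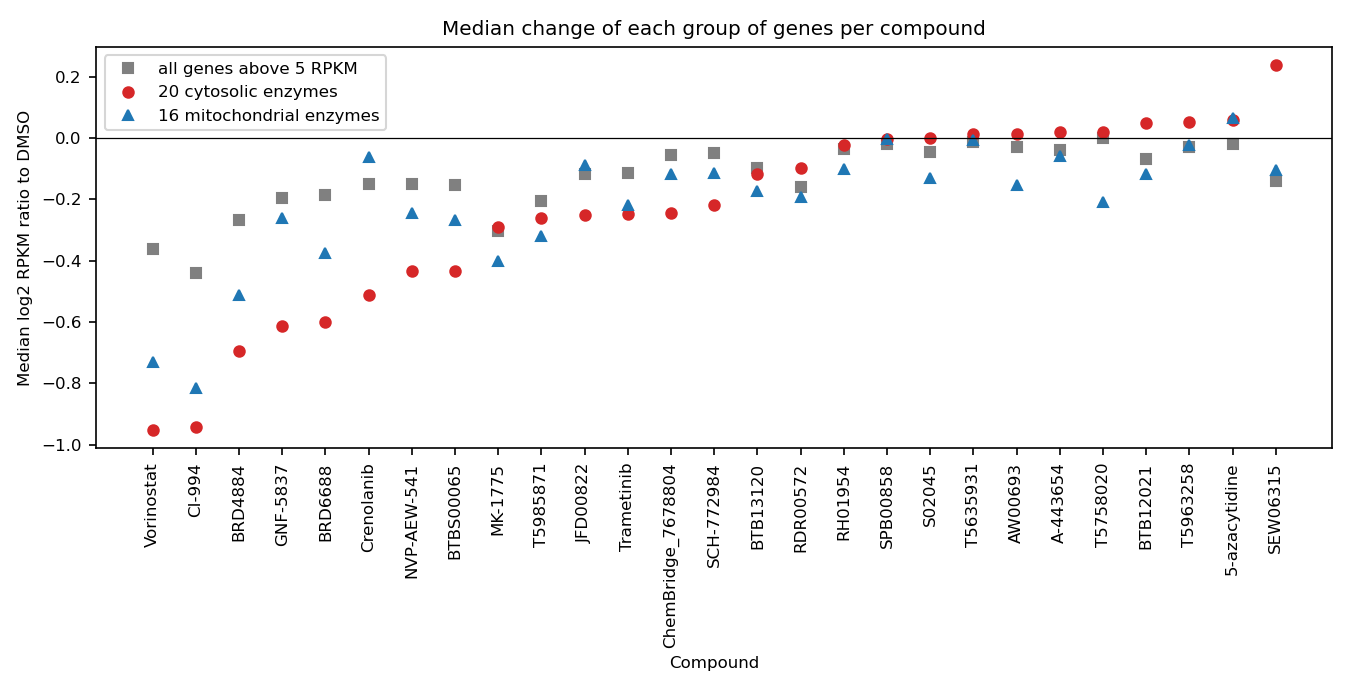
Median log2 RPKM ratio against DMSO of the 20 cytosolic members, the 16 mitochondrial members and all genes above 5 RPKM, for each of the 27 compounds. Vorinostat and CI-994 have the lowest cytosolic medians, at -0.95 and -0.94, and SEW06315 has the highest, at 0.24.

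Most of the family was lower with the HDAC inhibitors. By RPKM, 10 cytosolic and 5 mitochondrial members lay below 2-fold with Vorinostat, against 22.5% of all genes, and 9 and 5 with CI-994, against 26.1%. BRD4884 gave 2 cytosolic members and 1 mitochondrial member below 2-fold, against 4.42% of all genes, and BRD6688 gave Yars2 alone, against 6.75%. The junction signal allowed a test, with the 3 DMSO libraries and the 8 of the HDAC inhibitors in 1 limma fit over 10467 genes and Benjamini-Hochberg adjustment over all of them. The labels do not say that the libraries came from separate cultures, and the study calls those of the HDAC inhibitors biological replicates. The p-values measure the spread between these libraries.

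With Vorinostat, 27 of the 34 members tested fell and 2 rose (adjusted p below 0.05), against 35.5% of all genes lower and 42.0% higher. With CI-994, 28 fell and 1 rose, against 36.4% and 41.7%. With BRD4884, 24 fell and 2 rose, against 20.4% and 42.0%. With BRD6688, 28 fell and 1 rose, against 26.3% and 39.0%. The share of synthetase genes that fell was thus above the share of all genes in each comparison, and the share that rose was below it. In the same fit the median log2 difference of the cytosolic members was -0.61, -0.56, -0.42 and -0.44 with Vorinostat, CI-994, BRD4884 and BRD6688, that of the mitochondrial members -0.57, -0.62, -0.19 and -0.47, and that of all genes 0.07, 0.06, 0.16 and 0.11. Centring on the median of all genes moved the higher share of all calls with BRD4884 from 67.3% to 49.1%, and the members then numbered 28 lower and 0 higher with BRD4884, 30 and 0 with BRD6688, 26 and 2 with Vorinostat, and 26 and 1 with CI-994. Calls that were lost when 1 library was left out were those of Sars and Wars2 with Vorinostat, Eprs and Nars with CI-994, Cars2, Dars, Farsb, Kars, Nars2 and Yars2 with BRD4884, and Eprs, Fars2, Iars2, Qars, Rars and Wars2 with BRD6688 (adjusted p up to 0.77, 0.29, 0.11 and 0.30 for the 4 inhibitors). Of the 20 cytosolic members, 17 fell with all 4 inhibitors, Cars and Rars fell with 2 of them, and Qars with none.

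The valyl gene Vars fell most among the cytosolic members with Vorinostat, CI-994 and BRD4884, and Farsa with BRD6688 (-0.89). Its junction signal was 877, 839 and 781 RPM in DMSO, 192 and 164 with Vorinostat, 288 and 286 with CI-994, 457 and 450 with BRD4884, and 521 and 566 with BRD6688. The treated libraries all lay below the lowest DMSO library, and the libraries of each inhibitor lay closer to each other than to those of the next. The log2 difference was -2.23 ± 0.07 with Vorinostat (SE, adjusted p = 3.56e-12) and -0.61 ± 0.07 with BRD6688 (adjusted p = 7.41e-06). Farsa was at 246, 246 and 231 RPM in DMSO, 106 and 79.2 with Vorinostat, 96.7 and 91.9 with CI-994, 167 and 157 with BRD4884, and 124 and 136 with BRD6688. It fell by 1.39 ± 0.10 on the log2 scale with Vorinostat (adjusted p = 8.89e-09) and by 1.35 ± 0.10 with CI-994 (adjusted p = 1.29e-08). Its partner subunit Farsb fell less, by 0.29 with Vorinostat and by 0.58 with CI-994. Mars (methionyl), at 579 to 591 RPM in DMSO and 286 and 245 with Vorinostat, was the third cytosolic member past 2-fold with that compound, whereas with BRD4884 and BRD6688 no cytosolic member was.

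**Figure D3:**
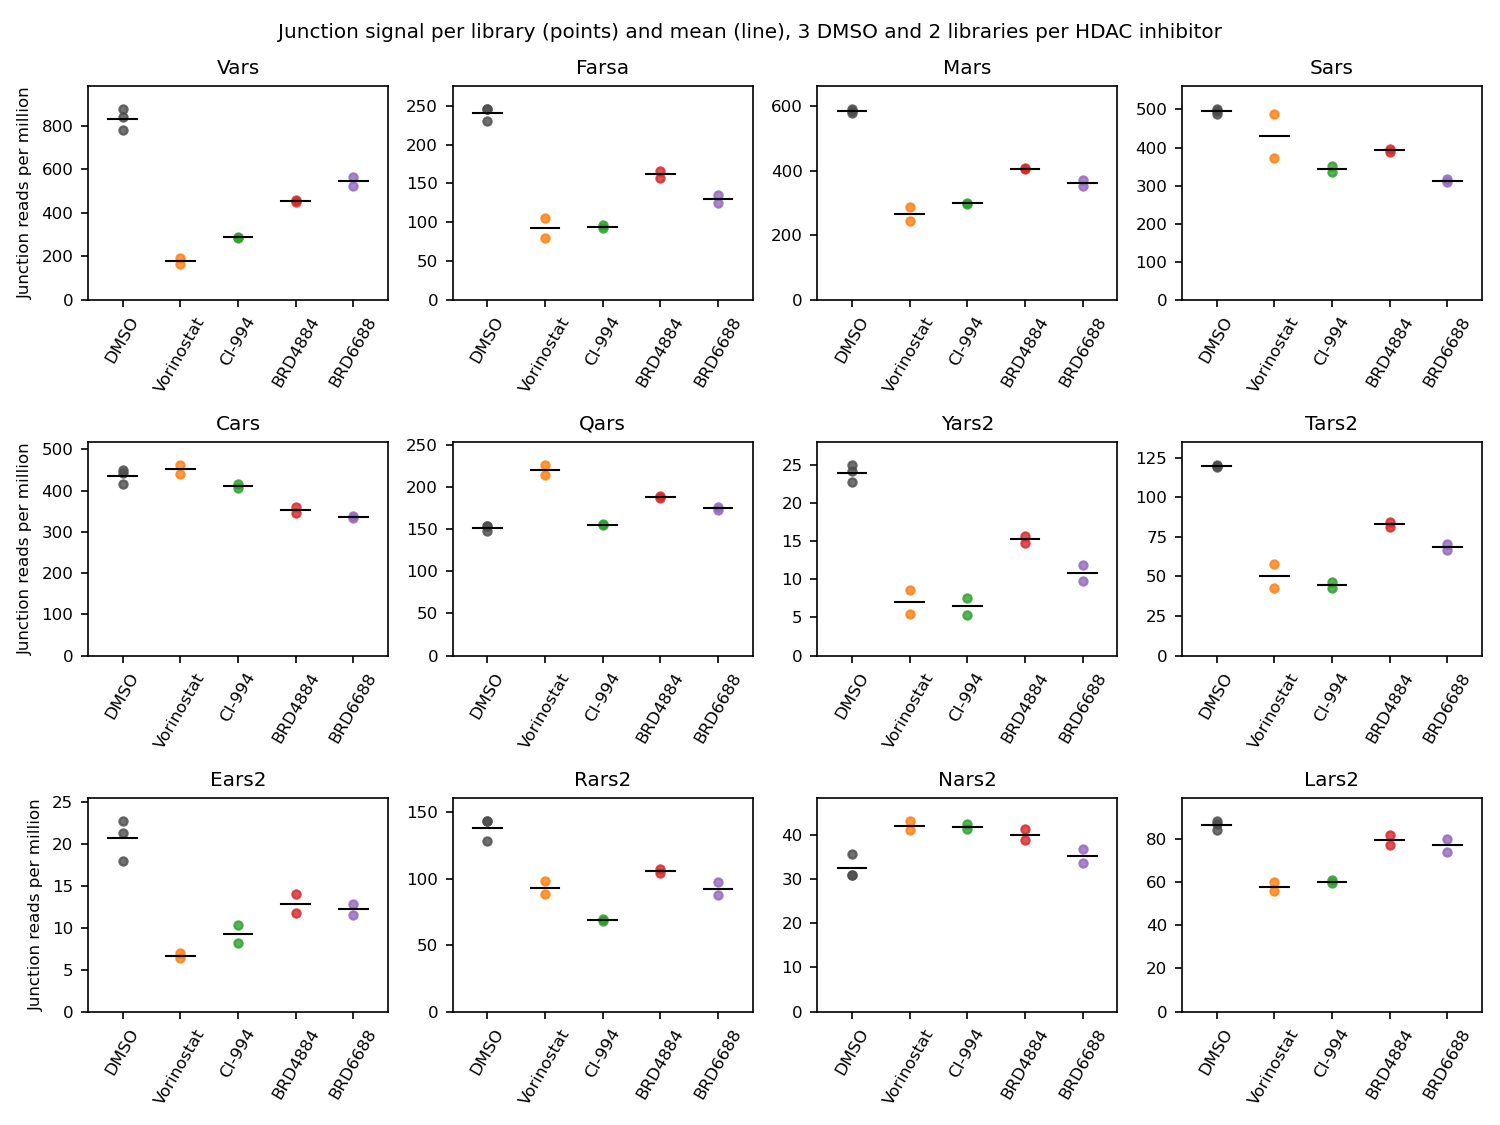
Junction signal (RPM) of selected synthetase genes in the 3 DMSO libraries and in the 2 libraries of each HDAC inhibitor, 1 point per library, a line at the mean of each group, and each axis starting at 0. The treated libraries of Vars lie between 164 and 566, below the DMSO libraries at 781 to 877, whereas the libraries of Qars with Vorinostat lie above DMSO.

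With Vorinostat the cytosolic members nearest to DMSO were Cars, Rars and Sars. Rars was at -0.06 log2 (adjusted p = 0.36). For Sars, Vorinostat A (489 RPM) lay at the lowest of the DMSO libraries (489, 495 and 502) and Vorinostat B (372) well below. The call (log2 difference -0.22, adjusted p = 0.036) was lost without library Vorinostat B or without any 1 of the DMSO libraries. With the other inhibitors Sars fell further, by 0.53 log2 with CI-994, 0.33 with BRD4884 and 0.66 with BRD6688. Cars was at 417, 442 and 449 RPM in DMSO and at 462 and 441 with Vorinostat (adjusted p = 0.44), and fell with BRD4884 (-0.30) and BRD6688 (-0.38).

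Qars (glutaminyl), a member of the multisynthetase complex, was the exception to the downward direction among the cytosolic members. It was at 154, 148 and 153 RPM in DMSO, 226 and 214 with Vorinostat, 155 and 155 with CI-994, 189 and 187 with BRD4884, and 173 and 176 with BRD6688. It rose by 0.54 ± 0.06 log2 with Vorinostat (adjusted p = 1.48e-06), 0.31 ± 0.06 with BRD4884 (adjusted p = 4.95e-04) and 0.20 ± 0.06 with BRD6688 (adjusted p = 0.01), and the last was lost without library BRD6688 B (0.19, adjusted p = 0.068), while the calls with BRD4884 and BRD6688 did not pass when centred on the median of all genes. With CI-994 it did not pass (0.03, adjusted p = 0.63). Of the 8 enzymes of the multisynthetase complex, the other 7 (Dars, Eprs, Iars, Kars, Lars, Mars and Rars) fell with CI-994 and BRD6688, and all but Rars fell with Vorinostat and BRD4884.

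Among the 14 mitochondrial members tested, 10 fell with Vorinostat, 10 with CI-994, 6 with BRD4884 and 9 with BRD6688, and Ears2, Rars2, Sars2, Tars2 and Yars2 fell with all 4. Of the 10 that fell with Vorinostat, Fars2 and Lars2 were higher by RPKM, as given below. Yars2 was at 24.97, 24.2 and 22.7 RPM in DMSO, 8.5 and 5.4 with Vorinostat, 7.6 and 5.3 with CI-994, 15.6 and 14.8 with BRD4884, and 11.9 and 9.8 with BRD6688. No treated library reached the lowest DMSO library. It fell by 1.83 ± 0.19 log2 with CI-994 (adjusted p = 3.85e-07) and by 1.11 ± 0.19 with BRD6688 (adjusted p = 1.19e-04), the latter the only member past 2-fold with either BRD compound. Tars2 was at 119, 120 and 120 RPM in DMSO, 58.0 and 43.0 with Vorinostat, 46.6 and 42.9 with CI-994, 84.3 and 81.4 with BRD4884, and 66.6 and 70.4 with BRD6688, and fell by 1.41 ± 0.10 log2 with CI-994 (adjusted p = 1.38e-08). Ears2, Cars2 (cysteinyl) and Sars2 (seryl) also fell past 2-fold with Vorinostat, by 1.55, 1.26 and 1.19 log2. Past 2-fold were 3 cytosolic and 5 mitochondrial members with Vorinostat, and 2 and 5 with CI-994.

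The mitochondrial asparaginyl gene Nars2 rose with 3 inhibitors. It was at 35.6, 30.9 and 30.9 RPM in DMSO and at 41.0 and 43.2 with Vorinostat, 42.5 and 41.3 with CI-994, 38.9 and 41.3 with BRD4884, and 36.8 and 33.6 with BRD6688. The BRD6688 libraries overlapped the DMSO range and those of the other inhibitors did not. The log2 differences were 0.37 ± 0.10 with Vorinostat (adjusted p = 0.003), 0.36 ± 0.10 with CI-994 (adjusted p = 0.0034) and 0.30 ± 0.10 with BRD4884 (adjusted p = 0.015), the last lost without DMSO B, DMSO C or BRD4884 B (adjusted p = 0.056, 0.0505 and 0.11). By RPKM it was not higher, at -0.17 with Vorinostat and -0.06 with CI-994. Aars2 and Vars2 passed with none of the inhibitors.

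Other genes of tRNA charging fell as well. Of the scaffold genes of the multisynthetase complex, Aimp2 fell by 1.26 and Eef1e1 by 1.38 log2 with Vorinostat (adjusted p = 1.25e-07 and 1.61e-07) and both fell with all 4 inhibitors, whereas Aimp1 fell with CI-994 and BRD6688. Of 4 further mitochondrial charging genes tested, 3 fell with Vorinostat and with CI-994, among them Qrsl1, a subunit of the mitochondrial glutaminyl-tRNA amidotransferase, which fell by 1.54 and 1.34. Of the 11 genes of the ATF4 programme tested, 10 fell and 1 rose with Vorinostat, 4 fell and 2 rose with CI-994, 9 fell with BRD4884 and 11 fell with BRD6688. Shmt2 and Mthfd2, enzymes of mitochondrial folate metabolism, fell by 2.07 and 2.09 log2 with Vorinostat, whereas Ddit3, the stress factor CHOP, rose by 1.02. On the list of cytosolic synthetases known as ATF4 targets, 11 of 12 fell with Vorinostat and with CI-994, and 12 of 12 with BRD4884 and BRD6688. Of the 8 other cytosolic members, 6, 7, 6 and 7 fell with Vorinostat, CI-994, BRD4884 and BRD6688.

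Markers of other cell types moved with the same treatments. The 7 listed above summed to 15.2 RPKM with Vorinostat, 20.1 with CI-994, 9.04 with BRD4884 and 5.85 with BRD6688, against 3.65 in DMSO, and 3 of the 3 tested in the junction signal (Col1a1, Pecam1 and Mbp) rose with all 4. Their part in the changes of the synthetase genes was not tested, and in bulk RNA fewer cells of a type and less RNA per cell cannot be told apart.

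BRD4884 and BRD6688 were the only pair of HDAC inhibitors given at 1 known dose, 10 µM. In a direct limma test of their difference, added after the data were seen, 8 of the 34 members differed, 2 higher with BRD6688 (against 10.4% of all genes) and 6 lower (against 23.2%). Eprs and Vars were higher with BRD6688 by 0.33 and 0.26 log2, and Hars2 and Fars2 lower by the largest amounts, with differences of -0.51 and -0.46. For the other 26 members the differences lay between -0.47 and 0.20, with 95% intervals that together spanned -0.91 to 0.36. Centring on the median of all genes turned the split of the members called to 5 higher and 1 lower, and that of all genes from 30.98% to 59.9% higher. When 1 library of either compound was left out, 0 to 2 of the members passed.

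SEW06315 was the compound with the highest cytosolic median, and the members that were higher with it were mostly the known ATF4 targets. By RPKM, 11 of these 12 were above DMSO (median log2 ratio 0.34, with Mars at -0.16), against 1 of the 8 other cytosolic members (median -0.28) and 4 of the 16 mitochondrial ones (median -0.11). The median of all genes above 5 RPKM was -0.14, and 70.8% of them lay below 0. Wars was at 61.7 RPKM in DMSO and 119 with SEW06315, Eprs at 191 and 317, Lars at 86.0 and 141, and Gars at 302 and 475. The single library is beyond all 3 DMSO libraries for each of these members in the junction signal. Wars was at 248, 238 and 258 RPM in DMSO and 533 with SEW06315, Eprs at 1764, 1701 and 1781 and then 3218, and Lars at 599, 581 and 598 and then 1069. Of the promoters shown above, those of Iars, Yars and Tars belonged to members at 0.18, 0.25 and 0.29 log2, below Wars, Eprs, Lars and Gars. At the low end were Qars (99.2 and 69.4 RPKM), Yars2 (29.1 and 21.01 RPKM) and Farsa (75.4 and 56.5 RPKM). By RPKM no member passed 2-fold, whereas in the junction signal Wars was 1.10 log2 above DMSO, and with 1 library there is no test. The split was not particular to SEW06315. BTB12021 had 10 of the 12 listed members above DMSO, against 2 of the 8 other cytosolic members. These counts were 12 and 2 with 5-azacytidine, and 9 and 1 with A-443654. In the 4 HDAC inhibitors the listed members had the lower median.

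The genes of the ATF4 programme stood higher with SEW06315 as a set. All 15 had a log2 ratio above 0, with a median of 0.71, whereas 70.8% of all genes above 5 RPKM lay below 0. Past 2-fold upward were 4 of the 15, against 1.89% of all genes above 5 RPKM: Ddit3 (26.7 and 140 RPKM), Slc7a11, the cystine transporter (4.84 and 26.98 RPKM), the pseudokinase gene Trib3 (18.1 and 88.2 RPKM) and Chac1 (35.6 and 73.9 RPKM). Atf4 itself was at 309 and 505 RPKM. The scaffold genes Aimp1, Aimp2 and Eef1e1 were at -0.14, -0.60 and -0.31. The summed RPKM of the markers of other cell types was 5.39, within the range of the other compounds. SEW06315 was not alone in raising the programme. Its genes were above DMSO in 15 of 15 cases with BTB12021 (median 0.43), 14 with A-443654 (0.27) and 13 with S02045 (0.11). They were above DMSO in 0 of 15 cases with BRD4884, BRD6688, Crenolanib, NVP-AEW-541 and SCH-772984.

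With T5985871, members of the family stood at both ends. By RPKM, Rars2 was below 2-fold (45.4 and 16.9 RPKM), against 8.41% of all genes, and Lars2 above it (120 and 336 RPKM), against 6.05%. Qars was at 99.2 RPKM in DMSO and 193 with T5985871, Kars at 322 and 465, and Tars at 83.2 and 119. Lars, Dars and Farsb were lower, at -0.98, -0.95 and -0.91 log2. Here the known ATF4 targets were not the higher group, with a median of -0.32 against 0.10 for the other cytosolic members. In the junction signal Qars was at 148 to 154 RPM in DMSO and 266 with T5985871, Kars at 1517 to 1572 and 2253, and Rars2 at 129 to 143 and 49.4. With AW00693 Rars2 (28.1 RPKM) was also below DMSO.

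Lars2 was the member for which RPKM and the junction signal disagreed most. With T5985871 its RPKM was higher by 1.48 log2, whereas its junction signal was 84.4, 88.4 and 86.9 RPM in DMSO and 36.3 with T5985871, lower by 1.24. In 6 compounds the RPKM of Lars2 lay above DMSO and its junction signal below it by more than 0.3 log2, the others being AW00693 (0.61 and -0.89), BTB13120 (0.91 and -0.46), Vorinostat (0.66 and -0.58), CI-994 (0.65 and -0.52) and T5635931 (0.35 and -0.67). In the limma fit Lars2 fell with Vorinostat (adjusted p = 7.54e-06) and CI-994 (adjusted p = 2.15e-05). Both pairs above 2-fold by RPKM are therefore pairs whose junction signal was not higher, since with BRD6688 the RPKM of Lars2 was 248 against 120 and its junction signal 80.0 and 73.9 RPM against 84.4 to 88.4. The cause was not tested. Vars showed a smaller gap, with BTB13120 at 0.91 by RPKM and -0.19 by junction signal, and with BRD6688 at 0.08 and -0.61. For the other members the gap was mostly under 0.5 log2, with Fars2, Wars2, Qars, Yars and Nars2 past it in 1 to 3 compounds each. Besides Lars2, only Fars2 had opposite directions past 0.3 log2, in 1 compound. With Vorinostat it was at 0.37 by RPKM and -0.51 by junction signal.

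**Figure D4:**
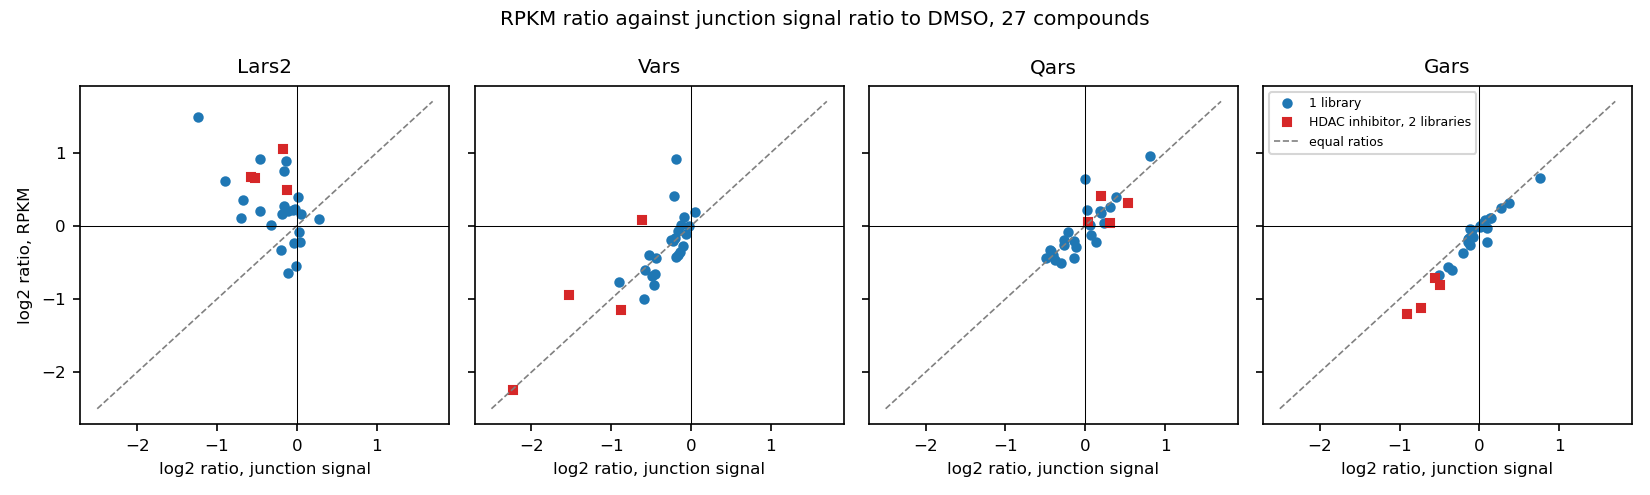
Log2 ratio against DMSO by RPKM (vertical) and by junction signal (horizontal) in 4 panels, for Lars2, Vars, Qars and Gars, with 1 point per compound, red squares for the HDAC inhibitors and a dashed line of equal ratios. Gars lies along the line, whereas Lars2 with T5985871 lies at 1.48 by RPKM and -1.24 by junction signal.

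Splicing within the synthetase genes changed at a few recurrent exons. The percent spliced in (PSI) is the share of transcripts that include an exon or retain an intron, and an event was counted as changed when the mean differed from DMSO by at least 10 PSI with the compound's libraries outside the range of the DMSO libraries. With the 4 HDAC inhibitors, 9 of 3317 tests of member events were changed, or 0.271%, against 0.728% of all events. Over the 27 compounds, 70 of 9289 tests of member exons were lower (0.754%), against 1.0% of all exons, and 4 were higher, against 0.602%. These 74 calls were in 21 exons. The mitochondrial members gave 66 of them in 3103 tests (2.13%) and the cytosolic members 8 in 6186 (0.129%), against 1.60% of all exons in either direction. This contrast does not separate compartment from read depth. Mitochondrial members had a median of 15.7 RPKM in DMSO, against 149 RPKM. A 152-nt exon of Fars2 rested on 51 to 140 reads per library, against 928 to 3092 for the Eprs exon below. DMSO alone spanned 76.6 to 91.8 PSI for that Fars2 exon. The part of depth was not tested. Of 13806 tests of member introns, 45 were higher (0.326%), against 0.554% of all introns, and 17 lower (0.123%), against 0.23%. With T5985871, 10 of 343 member exons were lower (2.92%), close to the 2.71% of all exons, and with RDR00572 8 of 510 member introns were higher (1.57%), close to the 1.64% of all introns. The same DMSO libraries and the same exons enter these tests repeatedly, so the shares are descriptions.

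The one microexon among the called exons was in Eprs, 21 nt long at chr1:187211236-187211256 (mm9), a length that keeps the reading frame. Its PSI was 25.2, 26.2 and 22.8 in DMSO, 7.79 with AW00693 (95% Wilson interval 6.68 to 9.06), 8.18 with T5985871 (6.73 to 9.91) and 12.95 with T5635931 (11.6 to 14.5), and 34.4 and 36.6 with BRD4884. Reads behind each value numbered 928 to 3092. Its mean PSI lay below the DMSO range in 9 compounds and above it in 14, some by little, as with SCH-772984 at 26.6 (24.9 to 28.4). It was called lower in 3 compounds and higher in 1, so the calls went both ways with compounds chosen for both effects on microexons. These intervals, here and below, cover counting error only.

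Hars2, the mitochondrial histidyl enzyme, had the exon called most often, 243 nt long, lower in 12 compounds and higher in 1. It was at 81.1, 76.6 and 76.0 PSI in DMSO, 41.7 with RDR00572 (34.2 to 49.9), 44.5 with BTB12021, 48.9 with S02045 and 51.3 with JFD00822, and at 91.8 and 90.6 with Vorinostat. A 96-nt exon of Rars2 (chr4:34595035-34595130, mm9) was at 89.5, 91.4 and 92.9 PSI in DMSO, 66.6 with BTB12021 (61.1 to 71.8), 67.0 with RDR00572 and 67.1 with S02045. The same 3 compounds thus gave the lowest values of both the Rars2 and the Hars2 exon. They lowered exons broadly: 1.74%, 2.02% and 1.72% of all exons were lower with BTB12021, RDR00572 and S02045, against 1.0% over the 27 compounds. Of member exons, 1.45%, 1.15% and 1.16% were lower with them, which is not above those shares of all exons. In Tars2, a 68-nt exon (chr3:95552410-95552477, mm9), whose length is not a multiple of 3, was included nearly always in DMSO (95.5, 95.8 and 95.5 PSI) and was lowest with MK-1775 (67.0, interval 62.5 to 71.1) and A-443654 (74.9, interval 71.6 to 78.1). It was called lower in 5 compounds and higher in 0. The reads behind the Hars2 exon were fewer, 88 to 312 per library, than those behind the Tars2 exon, 157 to 869.

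**Figure D5:**
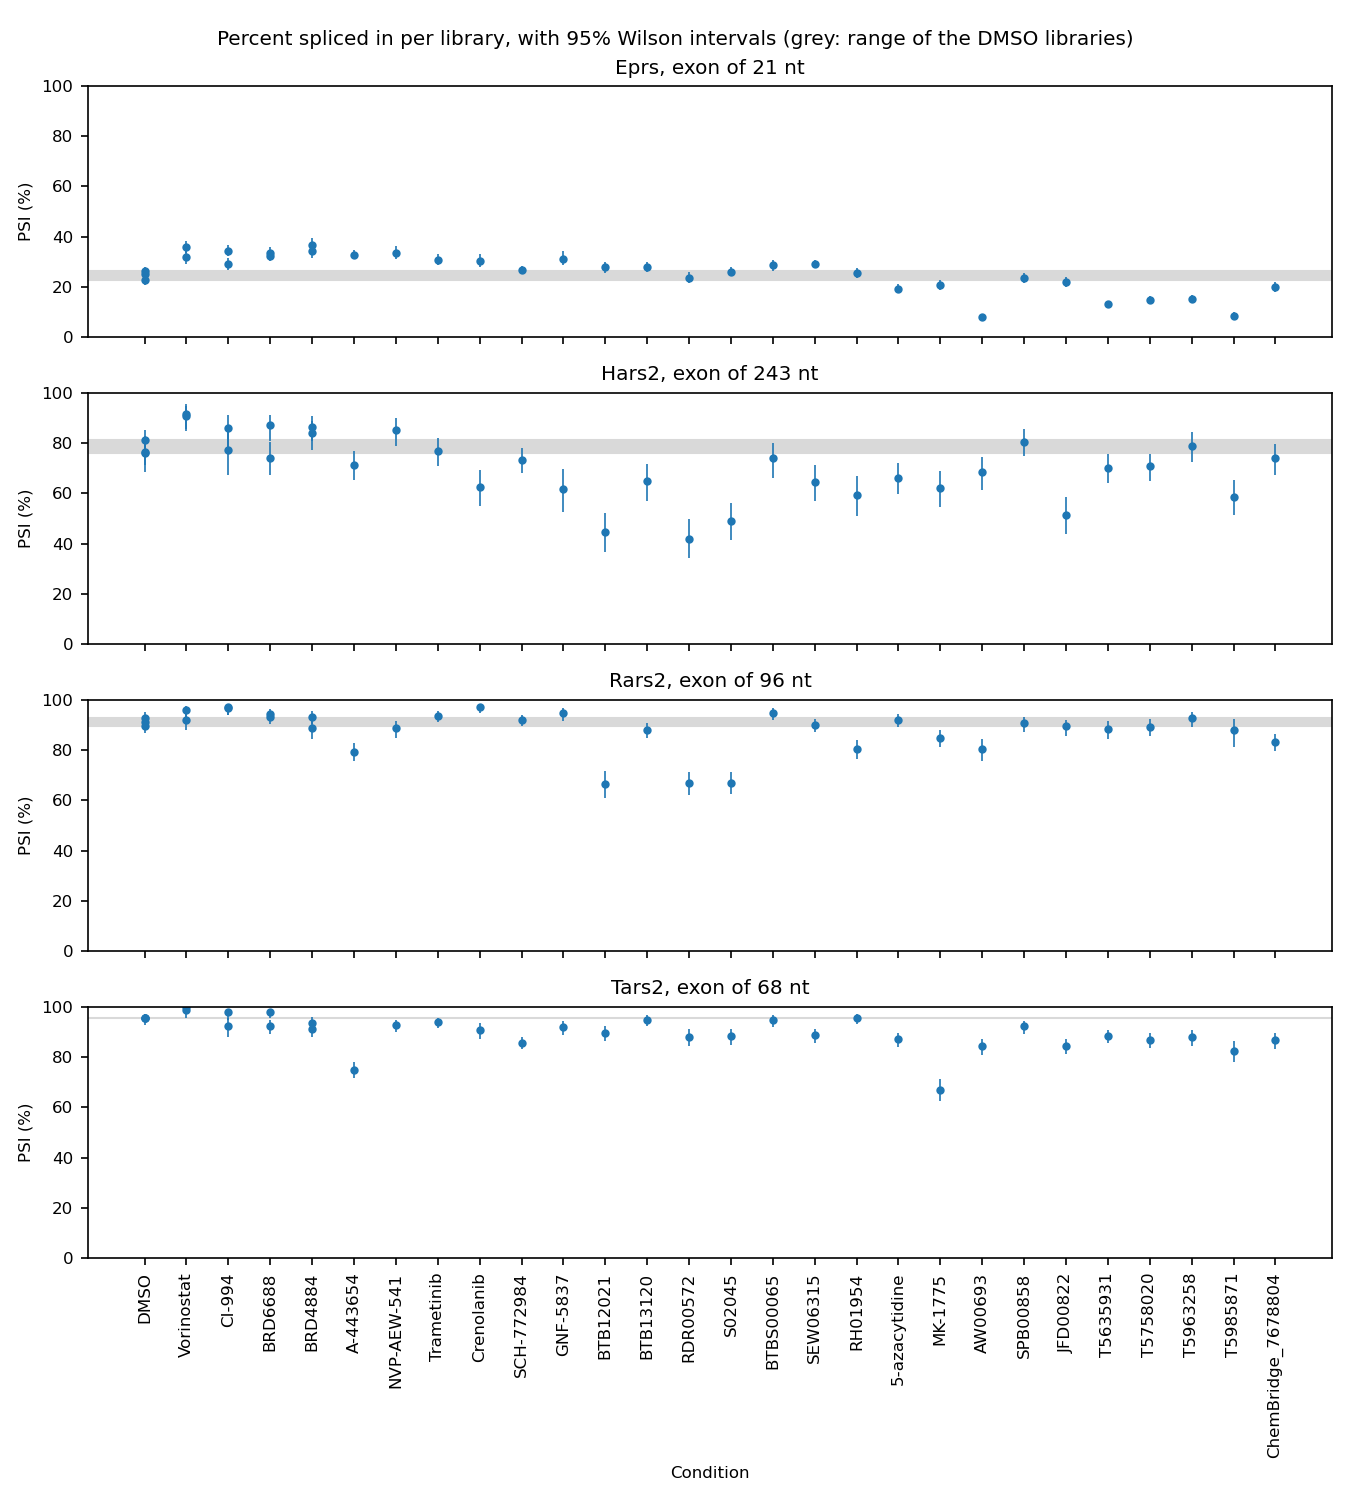
PSI of exons in Eprs (21 nt), Hars2 (243 nt), Rars2 (96 nt) and Tars2 (68 nt) in every library, by condition, with the range of the 3 DMSO libraries shaded and error bars for the 95% Wilson interval. The Eprs exon falls to 7.79 with AW00693, and the Tars2 exon lies lowest with MK-1775, at 67.0.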

How the data were processed

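PolyA RNA-seq of N2A cells gave 34 libraries in 28 conditions, grouped by the treatment in their labels, and compound names for coded labels came from the study's library tables. Salmon estimates, summed to genes, were turned by the authors into the deposited RPKM, 1 column per condition with libraries merged (the submitters' processing notes give Salmon 0.10.2, edgeR and the build mm9, and the study's methods give another Salmon version). The deposited percent spliced in (PSI) was made by the authors with vast-tools per event and library, and its quality strings, also deposited, hold the inclusion and exclusion reads after the authors' correction for mappability. The authors' log2 fold changes, p-values and FDR values against DMSO (edgeR exact test) were not used.

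Log2 ratios of RPKM used a pseudocount of 0.5, a floor of 5 RPKM in either condition and a limit of 2-fold. Inclusion and exclusion reads were summed over the exon events of a gene, scaled to reads per 1000000 (RPM), and log2(value + 0.5) of the 10467 genes with a mean of at least 1 RPM was fitted with limma 3.58.1 (trend, R 4.3.3, 6 residual degrees of freedom), called at an adjusted p below 0.05 (Benjamini-Hochberg over all genes). A gene with alternative exons yields more such reads than its mRNA level alone would give, so the signal compares libraries and not genes. PSI calls needed 10 PSI and libraries outside the range of DMSO, and for introns also 15 reads and a p above 0.05 for the balance of their ends. Only the limma step was tested on simulated data, for Vorinostat against DMSO. Of 200 genes with a known change 177 were recovered, with 17 false calls.

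Named genes were all members, with values for those past 2-fold, the 3 highest and 3 lowest of each compartment in DMSO, the 3 highest and 3 lowest ratios with the compounds at the extremes of the medians, and members called in the junction signal. Exons were taken from those called in at least 4 compounds, and exons and Lars2 were chosen after their values were seen. Further exons that met this limit are not described in full. They were the 163-nt exon of Tars2 (called in 9 compounds), the 152-nt exon of Fars2 (6), the 128-nt exon of Hars2 (5) and the 258-nt exon of Wars2 (4). The members and lists were chosen with earlier results of these data known. Alternatives were another pseudocount, other floors and limits, centring, filters, leaving out each library, and a replicate block. Some genes and 1 promoter sequence are not reported here.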

Additional observations from a re-analysis of the deposited data

Results flagged for a closer look

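In 8 members the difference between BRD6688 and BRD4884, both at 10 µM, itself passed the direct limma test (adjusted p below 0.05), which is why these members are given here. That is 2 of 34 higher with BRD6688, against 10.4% of all genes, and 6 lower, against 23.2%, and centring on the median of all genes turned the split to 5 higher and 1 lower. As BRD6688 minus BRD4884 on the log2 scale, the differences in junction signal were 0.33 for Eprs, 0.26 for Vars, -0.31 for Farsa, -0.33 for Sars, -0.17 for Tars, -0.46 for Fars2, -0.51 for Hars2 and -0.23 for Iars2. The comparison was added after the data were seen. It rests on 2 libraries for each compound: without BRD4884 A 1 member passed, without BRD4884 B 0, without BRD6688 A 1 and without BRD6688 B 2. No cause of these differences was tested.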

How the results depend on the processing

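Of 191 values recomputed under an alternative, 148 stayed close to the main value, 42 moved and 1 turned. A median was counted as turned only where its main value was at least 0.1 in size, so smaller ones could change sign uncounted. No member called in the limma fit turned direction. Pairs above 2-fold by RPKM numbered 9 when ratios were centred on the median of all genes and 15 at a 1.5-fold limit, and pairs below numbered 10 and 139. Centring moved the cytosolic and mitochondrial medians to -0.59 and -0.37 with Vorinostat, -0.50 and -0.37 with CI-994, -0.41 and -0.19 with BRD6688, -0.43 and -0.25 with BRD4884, -0.28 and -0.093 with NVP-AEW-541, -0.36 and 0.088 with Crenolanib, -0.42 and -0.067 with GNF-5837, -0.28 and -0.12 with BTBS00065, -0.055 and -0.12 with T5985871, and 0.38 and 0.034 with SEW06315. The mitochondrial median changed sign with SEW06315, from -0.11, and with Crenolanib, from -0.06. With members above 5 RPKM in DMSO only, the mitochondrial median was -0.85 with Vorinostat, -0.16 with BRD6688 and -0.31 with BRD4884, and its difference from the cytosolic median 0.10, 0.44 and 0.38.

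Requiring 2-fold beside the adjusted p left 8, 7, 0 and 1 members with Vorinostat, CI-994, BRD4884 and BRD6688, from 29, 29, 26 and 29, and 0 between the BRD compounds, from 8. Without a filter on low signal, or with 1 prior spread for all genes, that last count was 4. Leaving out 1 library gave 27 to 32 members with Vorinostat, 27 to 29 with CI-994, 21 to 26 with BRD4884, 25 to 28 with BRD6688 and 0 to 2 between the BRD compounds. Where 1 library of a compound was left, it was taken to vary like the other groups. Member splicing events changed with the HDAC inhibitors numbered 9, then 3 at 15 PSI, and 7 to 15 without a DMSO library, the highest being without DMSO A.

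A replicate block on the library letter gave 28, 28, 23 and 26 members with Vorinostat, CI-994, BRD4884 and BRD6688, and 6 between the BRD compounds. The letters are not stated to mark a shared day or culture, and same-letter libraries of different conditions had correlations of their deviations between -0.19 and 0.087, so pairing was not shown.

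Depth limits the low members most: Yars2, Ears2, Wars2 and Fars2 have a junction signal under 30 RPM in every DMSO library, and 23 compounds have 1 library and no test.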

Other observations

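Intron retention in the synthetase genes gave 62 calls in 13806 tests over the 27 compounds (0.449%, against 0.784% of all introns), in 29 introns and 45 of them higher. With T5985871, 6 of 494 member introns were higher (1.21%), close to the 1.24% of all introns. Some of these were in Qars, whose mRNA was also higher with that compound. A 183-nt intron of Qars (chr9:108410531-108410713, mm9) was at 1.22, 0.42 and 1.75 percent in DMSO and 13.9 with T5985871. A 93-nt intron of Qars (chr9:108417205-108417297) was at 5.20, 2.75 and 2.94 and then 21.5. Each of a pair of Sars introns was called in 7 compounds, not all the same ones, a 241-nt intron lower in 6 and higher in 1, and a 471-nt intron lower in 3 and higher in 4. The DMSO libraries themselves spanned 13.16 to 31.03 and 11.1 to 32.4 percent for these introns.

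The genes of selenocysteine charging, a separate route in which serine on the tRNA is converted, did not move together with Vorinostat. Pstk, the kinase of that route, fell by 0.63 log2 in the junction signal (limma, adjusted p = 0.0019), and Sepsecs, which completes the conversion, rose by 0.57 (adjusted p = 1.34e-04). With CI-994 Pstk fell by 0.71 and Sepsecs was at -0.20 (adjusted p = 0.094). ChemBridge_7678804 left the cytosolic median at -0.24 and gave Sars2 its lowest value outside the HDAC inhibitors, 8.03 RPKM against 16.5 in DMSO, just inside the 2-fold limit, and its Aars2 (4.97 against 9.07 RPKM) was the lowest of any compound.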
